A study of Mus musculus with 8 samples.

Results

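A set of 10 immediate early genes was followed through the cell types of the adult mouse hippocampus after developmental lead (Pb) exposure. The genes were Fos, Fosb, Jun, Junb, Jund, Atf3, Egr1, Ier2, Btg2 and Zfp36, chosen by name, and all 10 were found among the 17143 genes of the count table. The study profiled single hippocampal cells of 8 wildtype (a/a) mice at 5 months of age. The 4 Pb mice (2 females, 2 males) were offspring of dams that drank water with 32 ppm Pb-acetate from 2 weeks before mating until the end of lactation. The 4 control mice (2 females, 2 males) were offspring of dams given no Pb, and both groups lived on Pb-free water after weaning. Hippocampi of saline-perfused mice were dissociated with an enzyme kit in a heated instrument, and the cells were frozen and thawed before capture on a 10x Chromium. Each mouse is 1 sample, and the labels do not say which mice shared a litter.

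Immediate early genes are switched on within minutes of a stimulus without new protein synthesis, mostly through MAP kinase and calcium signalling that acts on factors such as SRF and CREB already bound at their promoters. Fos, Fosb, Jun, Junb, Jund and Atf3 encode subunits of AP-1 and related basic leucine zipper dimers. Egr1 is a zinc finger transcription factor, Ier2 a nuclear early response protein, Btg2 an antiproliferative regulator of mRNA decay, and Zfp36 (tristetraprolin) binds AU-rich mRNAs and promotes their decay. In the hippocampus Fos and Egr1 are widely used to mark recently active neurons. In dissociated brain tissue the same genes are also known to be induced in glia and vascular cells during the preparation, whose part in the levels given here was not tested.

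After filters, 5175 of 5258 cells were kept, between 211 and 1157 per mouse, with 1749079 to 8508064 unique molecular identifiers (UMIs, each standing for 1 captured RNA molecule) per mouse. Cells were clustered and named from marker genes. Microglia-like (1291 cells), oligodendrocyte-like (1276), endothelial-like (576) and pericyte-like cells (313) were tested in all 8 mice, as was cluster 0 (746 cells). Hemoglobin genes led cluster 0, but 2 of 5 red blood cell markers passed the detection threshold where at least 3 were needed, so it is left unnamed, and endothelial markers scored next. Astrocyte-like (272 cells) and Cajal-Retzius-like cells (110) were tested in 3 Pb and 3 control mice, those with at least 10 such cells. Smooth muscle-like (150), oligodendrocyte precursor-like (157) and choroid plexus-like cells (95) gave levels only. Apart from Cajal-Retzius-like cells no class was named as neurons, so the genes' best known setting is not measured here. Control M2 stood apart, since 79.3% of its oligodendrocyte-like cells lay in a cluster of 74 cells that held 1 cell of any other mouse. Libraries shared 32 cell barcodes, carried by 91 cells. Leaving these cells out gave 0 of the 10 genes at an adjusted p under 0.05 in every tested class, as with them.

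To show what lies upstream of the genes, the 200 bases before the RefSeq start of 5 members are printed, in lower case, on the strand of the gene, in build GRCm38.p6. RefSeq promoter entries matched 8 of the 10 genes. Capitals mark matches on either strand to TGACG (the core of the cAMP response element), to TGACNTCA (the full element with any base in the middle, which can overlap TGACG) and to the CArG box (the site of SRF). Fos, Junb, Btg2 and Zfp36 are shown as genes with an unadjusted p under 0.05, lower in Pb mice, in at least 1 class, and Jun as a gene with none. Fosb and Jund also had such a p and Atf3 had none, and their windows are not printed. The windows are chr12:85473690-85473889 on the plus strand for Fos, chr8:84978749-84978948 on the minus strand for Junb, chr1:134079156-134079355 on the minus strand for Btg2, chr4:95052223-95052422 on the minus strand for Jun and chr7:28379229-28379428 on the minus strand for Zfp36.
Fos: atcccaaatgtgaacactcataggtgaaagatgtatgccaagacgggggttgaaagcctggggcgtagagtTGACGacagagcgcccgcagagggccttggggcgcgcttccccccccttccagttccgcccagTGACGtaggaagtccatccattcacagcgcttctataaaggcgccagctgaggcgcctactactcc
Junb: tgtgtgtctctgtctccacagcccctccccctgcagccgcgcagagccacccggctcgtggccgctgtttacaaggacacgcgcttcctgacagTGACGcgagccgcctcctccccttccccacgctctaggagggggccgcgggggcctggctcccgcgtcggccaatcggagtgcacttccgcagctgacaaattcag
Btg2: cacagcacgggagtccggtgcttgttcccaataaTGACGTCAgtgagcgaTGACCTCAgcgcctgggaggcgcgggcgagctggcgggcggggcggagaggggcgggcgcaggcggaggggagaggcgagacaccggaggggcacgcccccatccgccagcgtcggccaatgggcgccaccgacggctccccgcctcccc
Jun: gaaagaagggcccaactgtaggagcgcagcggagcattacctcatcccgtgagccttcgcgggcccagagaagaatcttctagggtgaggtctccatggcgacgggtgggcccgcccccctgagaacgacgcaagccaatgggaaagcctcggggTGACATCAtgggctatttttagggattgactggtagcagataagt
Zfp36: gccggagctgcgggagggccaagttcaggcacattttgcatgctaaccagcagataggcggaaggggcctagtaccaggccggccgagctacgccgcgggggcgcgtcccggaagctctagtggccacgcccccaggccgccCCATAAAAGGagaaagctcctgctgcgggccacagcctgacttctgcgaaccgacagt

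The Fos window held 2 matches to TGACG, at -129 to -125 and at -66 to -62 from the start, and a TATAAA at -33 to -28. The Junb window held 1 match to TGACG, at -106 to -102. Btg2 held 2 matches to TGACNTCA, at -166 to -159 and -150 to -143. Within the first of these lay 2 overlapping matches to TGACG, at -166 to -162 and -163 to -159. Jun held 1 match to TGACNTCA, at -45 to -38. Zfp36 held a CArG box at -58 to -49. Of the windows not printed, Fosb held 1 match to TGACG, at -60 to -56, and Atf3 held 1, at -7 to -3. Jund held no match to any of these motifs. Of all 32851 RefSeq promoter windows of the same length, 15.7% held TGACG, 6.62% TGACNTCA, 9.96% TATAAA and 1.18% a CArG box. A match describes letters in these windows and not binding in these cells.

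The 10 genes were highest in microglia-like and vascular classes and lowest in astrocyte-like cells. Levels are given as CPM, the UMIs of a gene summed over the cells of a class in a mouse and scaled to all UMIs of those cells. Summed over the 10 genes, microglia-like cells held 21247 ± 2584 CPM (SD over 8 mice), smooth muscle-like cells 20922 ± 2030 (6 mice), endothelial-like cells 19664 ± 2148 (8 mice), pericyte-like cells 18351 ± 4144 (8 mice) and cluster 0 15079 ± 2312 (8 mice). Neighbours in that order did not differ beyond their spread over mice, except that smooth muscle-like cells stood above endothelial-like cells in 6 of 6 mice, by 1857 ± 1206 CPM. Below them came Cajal-Retzius-like cells with 9279 ± 3030 CPM (6 mice), oligodendrocyte precursor-like cells with 8037 ± 2078 (5 mice) and oligodendrocyte-like cells with 6234 ± 1085 (8 mice). Choroid plexus-like cells held 4147 ± 620 CPM (3 mice) and astrocyte-like cells 2997 ± 342 (6 mice). These means pool Pb and control mice, in unequal numbers in some classes. Smooth muscle-like values came from 4 Pb and 2 control mice, and choroid plexus-like values from Pb F1, control F2 and control M2. In precursor-like cells the only control mouse, F2, had 11293 CPM, and the Pb mice had 6206 to 8805. The summed level in cluster 0 exceeded that in Cajal-Retzius-like cells in 6 of 6 mice, by 5647 ± 2007 CPM, and precursor-like cells exceeded oligodendrocyte-like cells in 5 of 5, by 2159 ± 1428 CPM.

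**Figure D1:**
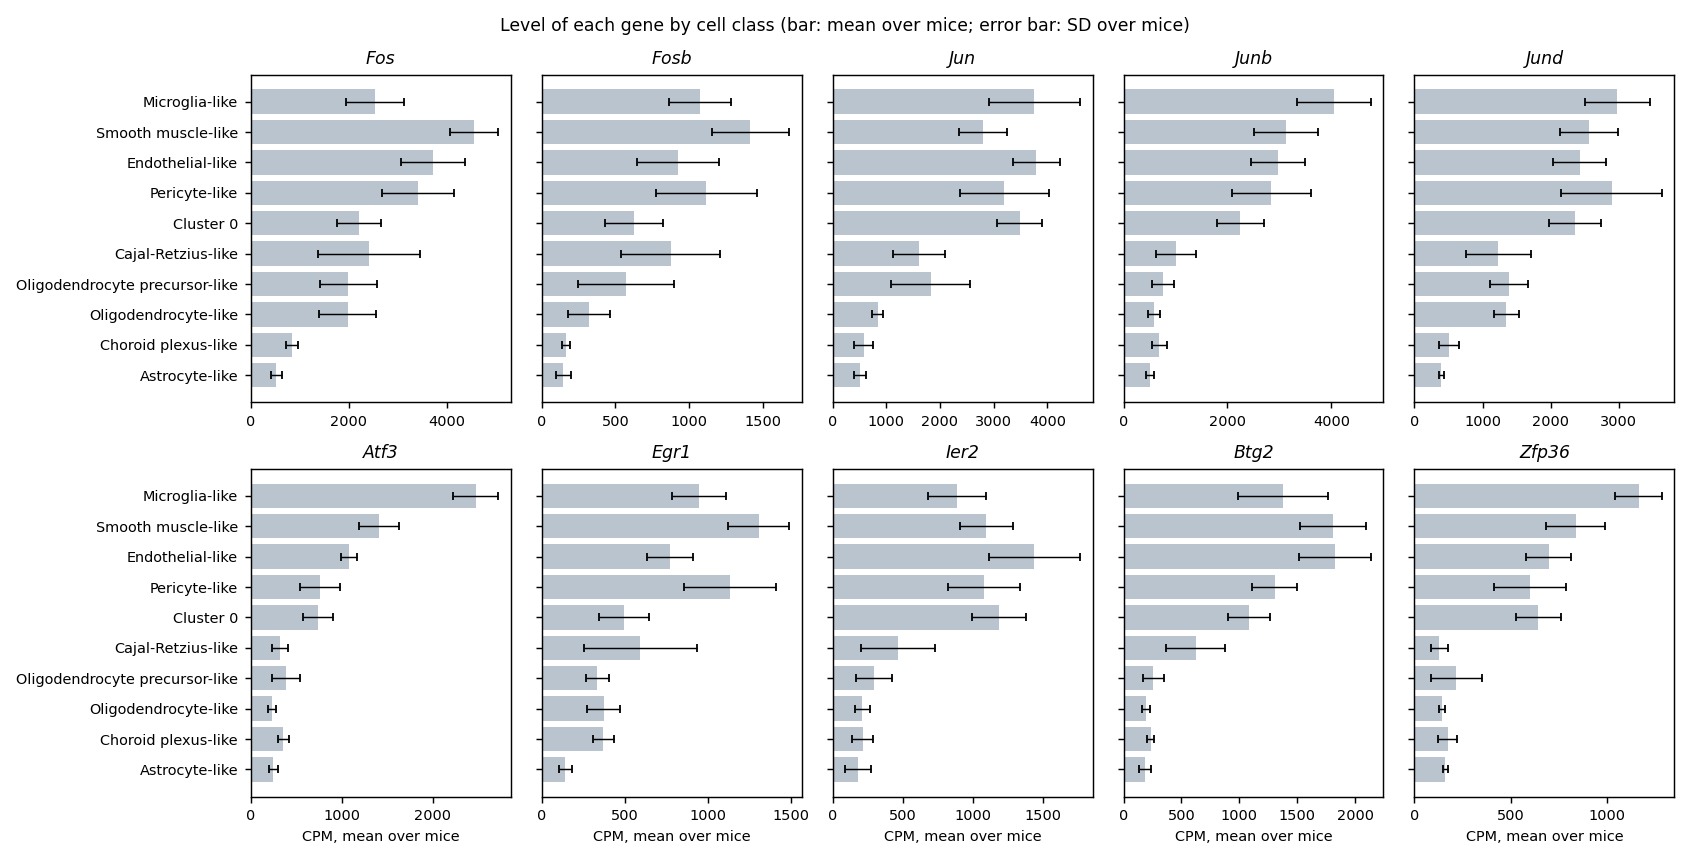
Level of each of the 10 genes (horizontal axis, CPM) in 10 cell classes, with the mean over mice as bars and the SD over mice as error bars. Fos reached 4558 CPM in smooth muscle-like cells against 524 in astrocyte-like cells, and Atf3 2471 CPM in microglia-like cells against 237 in oligodendrocyte-like cells.

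Among the Fos family, Fos had 4558 ± 497 CPM in smooth muscle-like cells (6 mice), 3720 ± 651 in endothelial-like cells and 3409 ± 733 in pericyte-like cells (8 mice each). Smooth muscle-like cells exceeded endothelial-like cells in 6 of 6 mice, whereas endothelial-like and pericyte-like cells changed places between mice. The middle of the order for Fos ran from microglia-like cells (2533 ± 590 CPM) through Cajal-Retzius-like cells (2411 ± 1041), cluster 0 (2209 ± 450) and precursor-like cells (1992 ± 584) to oligodendrocyte-like cells (1978 ± 579), with no pair of neighbours apart beyond the spread. Choroid plexus-like cells (848 ± 127 CPM) and astrocyte-like cells (524 ± 112) lay below all of these, and their ranges did not overlap. Fosb, a relative of Fos known for a long-lived truncated isoform, followed the same ends of the order, from 1415 ± 263 CPM in smooth muscle-like cells to 146 ± 51.5 in astrocyte-like cells.

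The Jun family and Atf3 were placed differently. Jun, the main partner of Fos in AP-1, was about level in endothelial-like (3793 ± 435 CPM), microglia-like (3758 ± 852) and cluster 0 cells (3483 ± 424), and lowest in astrocyte-like cells (509 ± 114). Junb was highest in microglia-like cells (4054 ± 712 CPM) and lowest in astrocyte-like cells (506 ± 79.8). Jund, the member of the family that is usually expressed without a stimulus, ranged from 2979 ± 477 CPM in microglia-like cells to 397 ± 39.2 in astrocyte-like cells. Atf3, a stress-induced factor that pairs with Jun proteins, stood at 2471 ± 250 CPM in microglia-like cells, with a lowest mouse of 2138. The next class, smooth muscle-like cells, had 1410 ± 224 CPM of Atf3 with a highest mouse of 1688, so the ranges did not overlap.

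Of the 4 other genes, Egr1 was highest in smooth muscle-like (1308 ± 183 CPM) and pericyte-like cells (1133 ± 277) and lowest in astrocyte-like cells (143 ± 41.0). Ier2 was highest in endothelial-like cells (1441 ± 326 CPM) and lowest in astrocyte-like cells (179 ± 92.8). Btg2 was about level in endothelial-like (1825 ± 311 CPM) and smooth muscle-like cells (1805 ± 284) and lowest in astrocyte-like cells (182 ± 52.2). Zfp36 was highest in microglia-like cells (1165 ± 121 CPM) and lowest in Cajal-Retzius-like cells (130 ± 44.4). Beside these levels, oligodendrocyte markers summed to 59481 CPM in oligodendrocyte-like cells of Pb mice and to 3042 CPM in their microglia-like cells, which lack them. That value shows how much RNA of another cell type a class can carry, and its part in the lowest levels was not tested.

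Each gene's share of the summed UMIs also varied between classes, as a description. Fos gave 31.1% of the UMIs of the 10 genes in oligodendrocyte-like cells and 11.9% in microglia-like cells, as means over mice. Atf3 gave 11.7% in microglia-like cells and 3.9% in oligodendrocyte-like cells, and Jund 22.0% in oligodendrocyte-like cells and 12.4% in endothelial-like cells.

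Within the microglia-like class the 4 clusters had different levels, given as a description since the clusters were made from expression. Cluster 10 (384 cells, led by Hmox1, a heme-degrading enzyme, and Rgs1, a regulator of G protein signalling) had 4472 CPM of Fos, 6649 of Jun, 3602 of Atf3 and 1866 of Zfp36. Cluster 11 (187 cells, led by genes of resting microglia such as P2ry12 and P2ry13) had 1518 CPM of Fos, 2948 of Jun, 686 of Atf3 and 615 of Zfp36. Clusters 4 (549 cells, led by inflammatory genes such as Il1a and Tnf) and 5 (171 cells) had 1776 and 2306 CPM of Fos. The share of cluster 10 among the microglia-like cells of a mouse was 11.3% to 38.7% in Pb mice and reached 46.8% in control M2. Of the 10 genes, 3 were among the genes used for clustering. With these and related genes left out of the clustering, the summed level in microglia-like cells was 21224 CPM.

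Over mice the 10 genes varied partly together. For each of 52 combinations of a mouse and a class (7 classes), log2(CPM + 5) was centred on the mean of the class. The strongest of the 45 pairs was Fos with Egr1 (Pearson's r = 0.82) and the weakest Fosb with Ier2 (r = 0.16), with a median of 0.54. Against the mean of the other 9 genes, Egr1 (r = 0.83) and Junb (0.83) were closest and Fosb (0.50) and Atf3 (0.58) least close. The points share libraries, and several come from 1 mouse, so these values describe the 52 combinations only. Among 3583 further genes with a mean of at least 50 CPM, the 10 most like the members were Dusp1 (r = 0.67), Nr4a1 (0.66), Per1 (0.63), Mafk (0.61), Ppp1r15a (0.57), Klf2 (0.56), Csrnp1 (0.55), Slc22a8 (0.55), Ncoa3 (0.54) and Rhob (0.54). Dusp1 is a MAP kinase phosphatase and Nr4a1 an orphan nuclear receptor.

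The main comparison asked whether developmental Pb exposure left a difference in these genes in adult hippocampal cells. Fos, Egr1 and Ier2 had a lower mean in Pb mice in each class tested and over all cells, but no gene passed the test. These comparisons share the same mice, and some of these directions turned under alternatives given below, in astrocyte-like, Cajal-Retzius-like and pericyte-like cells. In edgeR's quasi-likelihood test with sex as covariate and Benjamini-Hochberg adjustment over all genes, 0 of the 10 genes had an adjusted p under 0.05 in any class. Among all genes, 0 of 12640 in all cells, 0 of 6634 in endothelial-like cells, 0 of 6595 in cluster 0, 0 of 7718 in microglia-like cells, 0 of 7614 in oligodendrocyte-like, 0 of 5516 in pericyte-like, 0 of 2285 in astrocyte-like and 0 of 1648 in Cajal-Retzius-like cells passed (0.0% in each). DESeq2 also called 0 of the 10 genes, against 29 genes of any kind in all cells, 1 in endothelial-like cells and 1 in oligodendrocyte-like cells.

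At an unadjusted p under 0.05, the counts by class were as follows, and each gene counted was lower in Pb mice. Endothelial-like cells had 6 of 10 against 4.31% of all genes, and cluster 0 had 5 of 10 against 4.25%. All cells together had 4 of 10 (4.99% of all genes), oligodendrocyte-like cells 4 (4.2%), microglia-like cells 3 (4.29%) and Cajal-Retzius-like cells 1 (2.0%). Pericyte-like cells had 0 (4.35%) and astrocyte-like cells 0 (5.91%). The median log2 fold change of the 10 genes (Pb minus control) was -0.38 in endothelial-like cells, -0.36 in cluster 0, -0.33 in oligodendrocyte-like cells, -0.33 over all cells, -0.20 in Cajal-Retzius-like, -0.19 in astrocyte-like, -0.15 in microglia-like and -0.09 in pericyte-like cells. The median over all genes lay between -0.02 and 0.00 in each of these comparisons. The genes vary together, so their count is not 10 separate observations. In bulk sums such as these, fewer expressing cells and less RNA per cell cannot be told apart.

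**Figure D2:**
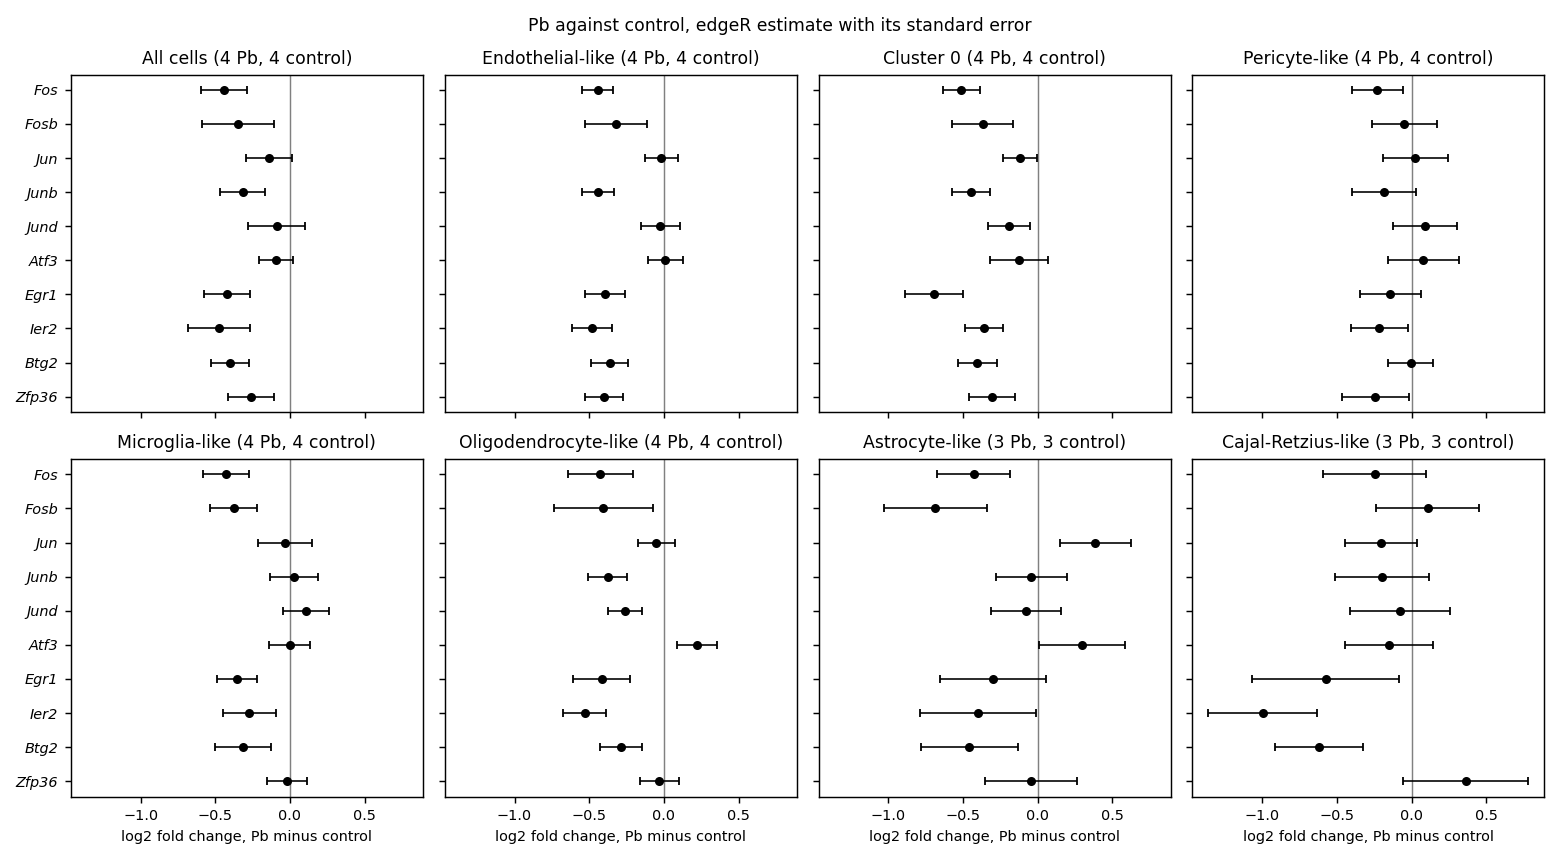
Log2 fold change of each gene, Pb minus control (horizontal axis), with its standard error from edgeR as error bar, in all cells and in 7 cell classes. Fos lies left of 0 in all 8 panels, from -0.51 in cluster 0 to -0.23 in pericyte-like cells, whereas Jun lies near 0 in endothelial-like cells (-0.02).

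In endothelial-like cells Fos had 3213, 3273, 3269 and 2947 CPM in Pb mice F1, F2, M1 and M2. Control mice F1, F2, M1 and M2 had 4184, 3717, 4484 and 4673 CPM. Every Pb mouse was below every control mouse. The log2 fold change was -0.44 (SE 0.10, edgeR unadjusted p = 0.000523, adjusted p = 0.468), the smallest unadjusted p of any member in any class. Junb, which can replace Jun in AP-1 dimers, had 2676, 2510, 2568 and 2444 CPM in Pb mice and 3854, 3087, 3532 and 3180 in control mice. Again the groups did not overlap, and the log2 fold change was -0.44 (SE 0.11, edgeR unadjusted p = 0.000697, adjusted p = 0.475). Ier2 had 1254, 1284, 1171 and 1155 CPM in Pb mice and 1695, 1528, 2110 and 1335 in control mice, also without overlap. Its log2 fold change was -0.48 (SE 0.14, edgeR unadjusted p = 0.00242, adjusted p = 0.746). The groups of 4 genes (Fos, Junb, Egr1 and Ier2) did not overlap, each lower in Pb mice, against 3.01% of all genes in either direction. Jun, Jund and Atf3 had log2 fold changes of -0.02, -0.02 and 0.01 in the same cells, close to the median of all genes.

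Cluster 0 gave similar values. Fos had 1617, 2132, 1915 and 1654 CPM in Pb mice and 2559, 2506, 2836 and 2457 in control mice, without overlap (log2 fold change -0.51, SE 0.13, edgeR unadjusted p = 0.000789, adjusted p = 1.00). Egr1 had 366, 469, 463 and 220 CPM in Pb mice and 662, 568, 675 and 549 in control mice. The Egr1 groups did not overlap, and its log2 fold change of -0.70 (SE 0.19, edgeR unadjusted p = 0.00234, adjusted p = 1.00) was the most negative in that cluster. Junb had 1937, 1996, 1961 and 1744 CPM in Pb mice and 2406, 2709, 3068 and 2151 in control mice (log2 fold change -0.45, SE 0.13, edgeR unadjusted p = 0.00253, adjusted p = 1.00). With Btg2, 4 genes had groups that did not overlap, against 2.73% of all genes in either direction. Without the filter on low counts, Fos (adjusted p = 0.0447) and Egr1 (adjusted p = 0.00262) passed in cluster 0, among 25 genes of 15502 (0.161%). Hemoglobin genes with Alas2 in this cluster ranged from 25.2 to 37340 CPM over Pb mice and from 179.8 to 19188 over control mice. The median UMI count per cell was lower in Pb mice both in cluster 0 (4643 against 5701) and in endothelial-like cells (5662 against 6297), with an exact permutation p = 0.0286 for each, the smallest that 4 against 4 mice can give. The part of depth in the lower levels was not tested.

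**Figure D3:**
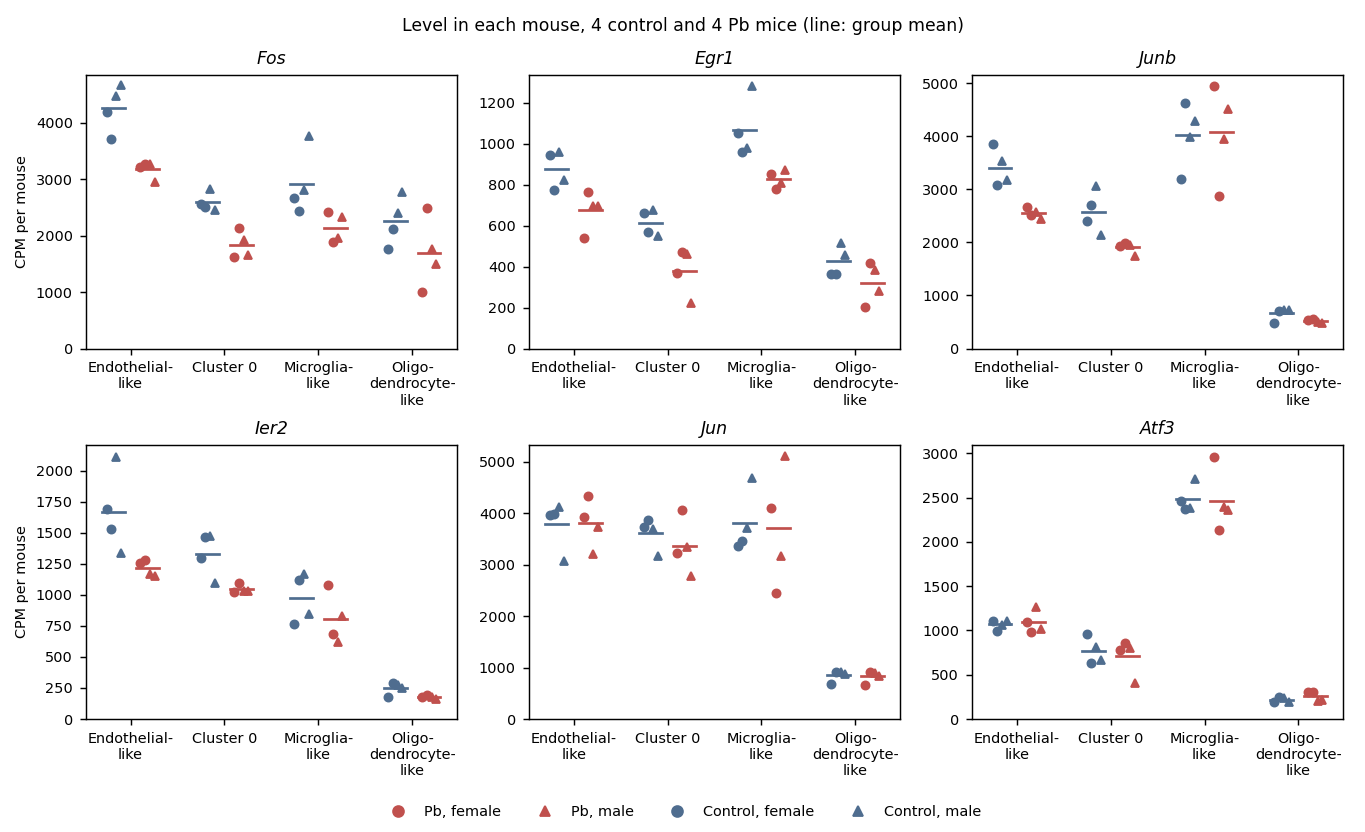
CPM of 6 genes in each mouse (vertical axis) in 4 cell classes, with 4 control mice (blue) and 4 Pb mice (red), circles for females, triangles for males and a line at each group mean. The Pb mice lie below all control mice for Fos in endothelial-like cells (2947 to 3273 against 3717 to 4673 CPM), while the groups overlap for Jun and Atf3 in all 4 classes.

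Among microglia-like cells, Fos, Egr1 and Fosb gave the smallest p. Fos had 2414, 1882, 1956 and 2322 CPM in Pb mice F1, F2, M1 and M2 and 2676, 2443, 2802 and 3766 in control mice. The groups did not overlap, though the highest Pb mouse and the lowest control mouse lay close together, and the log2 fold change was -0.43 (SE 0.15, edgeR unadjusted p = 0.0125, adjusted p = 1.00). Egr1 had 854, 777, 809 and 872 CPM in Pb mice and 1052, 959, 980 and 1283 in control mice, without overlap (log2 fold change -0.36, SE 0.13, edgeR unadjusted p = 0.0170, adjusted p = 1.00). Fosb had 931, 1094, 940 and 757 CPM in Pb mice and 1312, 998, 1154 and 1385 in control mice, with overlap (log2 fold change -0.38, SE 0.16, edgeR unadjusted p = 0.0280, adjusted p = 1.00). Of all genes, 2.71% had groups that did not overlap, in either direction. Junb, Jund and Zfp36, which were highest in microglia-like cells, had log2 fold changes of 0.03, 0.11 and -0.02. None of the 10 genes kept an unadjusted p under 0.05 without Pb M1 or without control M2, where 2.92% and 4.26% of all genes had one.

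Within single microglia clusters, given as values without a test, Fos averaged 1447 ± 133 CPM in Pb mice against 2105 ± 638 in control mice in cluster 4, and 3843 ± 292 against 5100 ± 1285 in cluster 10 (4 mice each). In cluster 11 the means were 1537 ± 860 (4 Pb mice) and 1493 ± 580 (3 control mice), which differed by less than their SD. In cluster 5 they were 1262 ± 366 (4 Pb mice) and 3698 ± 1746 (3 control mice). There the control values rest on 10 cells of F1, 10 of M1 and 19 of M2, and the Pb values on 25 to 39 cells per mouse. Of the 10 genes, 9 were lower in Pb mice in clusters 4 and 5, 5 in cluster 10 and 4 in cluster 11.

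In oligodendrocyte-like cells, which make myelin, Ier2 had 181, 192, 176 and 158 CPM in Pb mice and 175, 293, 276 and 250 in control mice. Only control F1 fell among the Pb mice, and the log2 fold change was -0.53 (SE 0.14, edgeR unadjusted p = 0.00235, adjusted p = 1.00). Junb had 532, 556, 497 and 475 CPM in Pb mice and 482, 707, 725 and 729 in control mice (log2 fold change -0.38, SE 0.13, edgeR unadjusted p = 0.0121, adjusted p = 1.00). Again control F1 was the low control mouse. Jund had 1214, 1175, 1463 and 1077 CPM in Pb mice and 1414, 1518, 1601 and 1311 in control mice (log2 fold change -0.26, SE 0.11, edgeR unadjusted p = 0.0379, adjusted p = 1.00). Fos spread more widely, with 1010, 2485, 1768 and 1491 CPM in Pb mice and 1770, 2123, 2405 and 2771 in control mice (log2 fold change -0.42, SE 0.22, edgeR unadjusted p = 0.0688, adjusted p = 1.00). Pb F2 was the second highest mouse for Fos. Atf3 was the 1 gene with a log2 fold change above 0 (0.22, 259 against 215 CPM). The count of 4 genes at an unadjusted p under 0.05 dropped to 2 without Pb F1 or Pb M1 (4.13% and 2.76% of all genes). It dropped to 1 without Pb M2 or control F2 (2.56% and 4.9%). It reached up to 6 when another mouse was left out, where the share of all genes was 3.84% to 6.67%. Within single clusters, given as values without a test for 4 Pb and 3 control mice (control M2 had fewer than 10 cells in each), 9 of the 10 genes had a lower mean in Pb mice in cluster 1 and 5 in cluster 2. Ier2 averaged 193 ± 14.4 CPM against 296 ± 95.9 in cluster 1 and 166 ± 12.7 against 230 ± 35.4 in cluster 2.

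Pericyte-like cells, which wrap capillaries, had overlapping groups for all 10 genes. Fos had 3351, 3114, 3337 and 2806 CPM in Pb mice and 3614, 3923, 4776 and 2346 in control mice (log2 fold change -0.23, SE 0.17, edgeR unadjusted p = 0.199, adjusted p = 1.00). Ier2 had 1168, 957, 926 and 972 CPM in Pb mice and 1197, 1229, 1518 and 667 in control mice (log2 fold change -0.22, SE 0.19, edgeR unadjusted p = 0.271, adjusted p = 1.00). Zfp36 had 640, 626, 519 and 449 CPM in Pb mice and 789, 687, 837 and 267 in control mice (log2 fold change -0.24, SE 0.23, edgeR unadjusted p = 0.297, adjusted p = 1.00). For all 3, control M2 was the lowest of the 8 mice. Without it 4 of the 10 genes, and 4.8% of all genes, had an unadjusted p under 0.05 and the median log2 fold change was -0.27, while without control M1 the median was 0.15.

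Astrocyte-like cells had low levels and few UMIs. Fosb had 124, 128 and 97.9 CPM in Pb mice F1, M1 and M2 and 165, 122 and 242 in control mice F1, F2 and M2 (log2 fold change -0.69, SE 0.35, edgeR unadjusted p = 0.0593, adjusted p = 0.837). Fos had 377, 553 and 431 CPM in those Pb mice, while control mice had 598, 685 and 497 (log2 fold change -0.43, SE 0.24, edgeR unadjusted p = 0.0927, adjusted p = 0.841). Jun pointed the other way, with 659, 489 and 588 CPM in Pb mice and 350, 553 and 417 in control mice (log2 fold change 0.39, SE 0.24, edgeR unadjusted p = 0.119, adjusted p = 0.860). The groups overlapped for all 10 genes. With no mitochondrial filter the log2 fold change of Fos was 0.23, so its direction in this class is not settled.

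Cajal-Retzius-like cells, the one neuron class tested, were the most variable. Ier2 had 454, 268 and 258 CPM in Pb mice F1, F2 and M2 and 762, 824 and 230 in control mice F2, M1 and M2 (log2 fold change -0.996, SE 0.36, edgeR unadjusted p = 0.0161, adjusted p = 0.999). Control M2 lay below all Pb mice. Btg2 had 454, 870 and 337 CPM in Pb mice and 949, 702 and 417 in control mice (log2 fold change -0.62, SE 0.29, edgeR unadjusted p = 0.0520, adjusted p = 0.999). Egr1 had 534, 881 and 222 CPM in Pb mice and 589, 1083 and 250 in control mice (log2 fold change -0.58, SE 0.49, edgeR unadjusted p = 0.261, adjusted p = 0.999). For Fos the values were 2033, 2654 and 1850 CPM in Pb mice and 2113, 4378 and 1440 in control mice (log2 fold change -0.25, SE 0.34, edgeR unadjusted p = 0.487, adjusted p = 0.999). Control M1 was the highest mouse for Fos and Egr1, and without it their log2 fold changes were 0.22 and 0.08.

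Over all cells of a mouse, Btg2 had 759, 1006, 818 and 841 CPM in Pb mice and 1167, 1133, 1181 and 973 in control mice (log2 fold change -0.40, SE 0.13, edgeR unadjusted p = 0.0108, adjusted p = 0.976). Only Pb F2 and control M2 crossed. Fos had 1840, 2535, 2189 and 2120 CPM in Pb mice and 2950, 2678, 3490 and 2482 in control mice (log2 fold change -0.44, SE 0.15, edgeR unadjusted p = 0.0184, adjusted p = 0.976). The same pair of mice overlapped. Egr1 had 514, 683, 605 and 552 CPM in Pb mice and 817, 694, 942 and 652 in control mice (log2 fold change -0.42, SE 0.16, edgeR unadjusted p = 0.0225, adjusted p = 0.976). These sums mix cell types, and oligodendrocyte markers, which go with a class low in these genes, were higher in Pb mice (19019 against 14010 CPM, exact permutation p = 0.0286). The part of cell type shares in the all-cell values was not tested. The count of 4 genes at an unadjusted p under 0.05 was 8 without control M2, where the share of all genes was 9.6%, and 1 without Pb F1, Pb M1, Pb M2, control F1 or control M1, where it was 2.41% to 5.34%.

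The share of cells with a UMI of a gene was compared after thinning every cell to 2000 UMIs, which left out 90 of 3555 Pb cells and 44 of 1620 control cells. Egr1 was detected in 64.1%, 60.0%, 61.3% and 66.2% of the microglia-like cells of Pb mice and in 73.3%, 72.0%, 73.8% and 78.7% of those of control mice. The groups did not overlap (62.9% ± 2.8 against 74.5% ± 2.9, SD, n = 4 each; two-sided exact permutation p = 0.0286, adjusted p = 0.286 over 70 tests). Without thinning the shares were 80.1% and 88.4%. Ier2 was detected in 29.0% ± 1.1 of oligodendrocyte-like cells in Pb mice and in 38.3% ± 3.5 in control mice, and Junb in 90.9% ± 0.50 of endothelial-like cells in Pb mice, 4.16 percentage points below control mice (exact permutation p = 0.0286, adjusted p = 0.286 for each). Junb, Egr1 and Btg2 in all cells and Jund in cluster 0 reached the same p, and all 7 were lower in Pb mice. Thinned shares were computed for the 10 genes only, so how often other genes reach this p is not known. None of the 70 tests passed after adjustment, and 4 against 4 mice cannot give a p below 0.0286. Cajal-Retzius-like cells were compared in 3 against 3 mice, where the smallest possible p is 0.1. Astrocyte-like cells were not compared, since fewer than 3 control mice kept 10 cells after thinning. The difference for Jund in cluster 0, -7.80 percentage points, was 0.36 points without thinning. No class lacked the 10 genes, so no share stands for background alone. Zfp36 was detected in 26.9% of astrocyte-like cells (median 3059 UMIs per cell) and in 75.5% of microglia-like cells (median 5221).

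Most cells carried several of the genes at once. Of the 10 genes, the median thinned cell held 9 in microglia-like cells, 8 in endothelial-like and pericyte-like cells, 7 in cluster 0, 6 in Cajal-Retzius-like cells, 5 in oligodendrocyte-like cells and 4 in astrocyte-like cells. At least 8 of the 10 were found in 69.3% of microglia-like cells and in 7.09% of oligodendrocyte-like cells. The mean per cell was 7.92 ± 0.30 in Pb mice and 8.34 ± 0.15 in control mice for microglia-like cells, 7.74 ± 0.26 and 8.29 ± 0.19 for endothelial-like cells, and 4.79 ± 0.25 and 5.26 ± 0.33 for oligodendrocyte-like cells (SD over 4 mice each). In pericyte-like cells the means were 7.76 ± 0.63 and 7.72 ± 1.38.

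**Figure D4:**
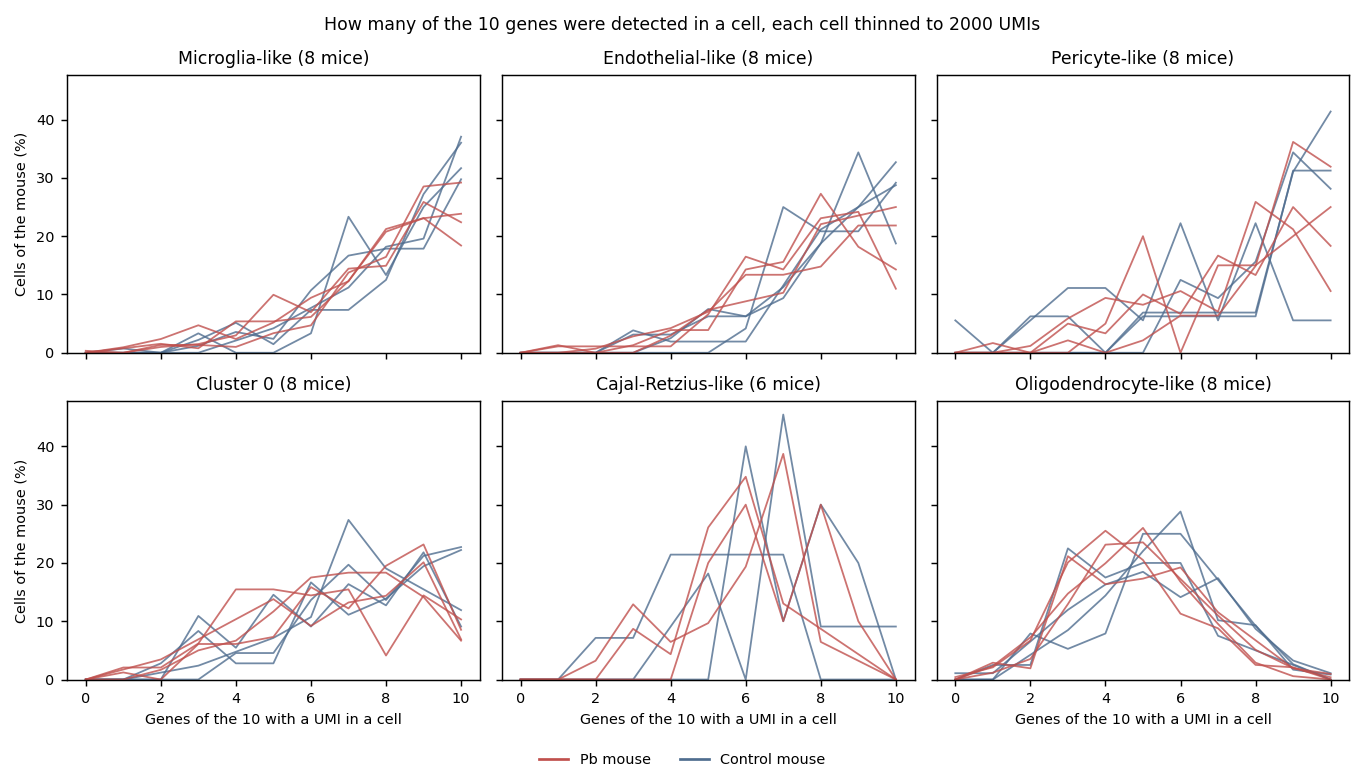
Share of a mouse's cells (vertical axis, percent) by how many of the 10 genes had a UMI in the cell (horizontal axis), after thinning to 2000 UMIs, with 1 line per mouse (Pb red, control blue), in 6 classes. Most microglia-like cells lie at the right end (median 9 genes) and most oligodendrocyte-like cells in the middle of the range (median 5), in mice of both groups.

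Whether the difference between Pb and control mice depended on sex was tested as an interaction in the 6 comparisons with all 8 mice. In edgeR 0 of the 10 genes had an adjusted p under 0.05, and 0 an unadjusted p under 0.05, in any of them. Among all genes, an unadjusted p under 0.05 was found for 2.81% in all cells, 3.21% in cluster 0, 3.09% in endothelial-like, 3.46% in microglia-like, 2.65% in oligodendrocyte-like and 4.12% in pericyte-like cells. An adjusted p under 0.05 was found for 0.0152% of genes in cluster 0 (1 gene) and 0.0% in the other 5. With 2 mice per sex and group, the standard errors leave room for sizeable differences. The interaction estimates of the 10 genes, male minus female effect on the log2 scale, ran from -1.09 to 0.08 in oligodendrocyte-like cells and from -0.39 to 0.49 in microglia-like cells.

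Related genes were read from lists of further early response genes. Of the further immediate early factors (22 in the table), 18 were tested in microglia-like cells, with 11 higher and 7 lower in Pb mice. Of these 2 higher and 1 lower had an unadjusted p under 0.05 (4.29% of all genes, in either direction), and 0 an adjusted p under 0.05. Of all genes tested there, 3741 of 7718 were higher in Pb mice. Maff, a small Maf factor, averaged 146 CPM in Pb mice and 98.2 in control mice (log2 fold change 0.63, SE 0.20, edgeR unadjusted p = 0.00538, adjusted p = 0.884). Klf4, a Krüppel-like factor, averaged 799 and 1036 CPM (log2 fold change -0.37), and Mafk 125 and 101 (0.37). Of 27 further early response effectors tested there, 12 were higher in Pb mice. Gadd45b (0.39), Trib1 (0.43) and Socs3 (-0.28) had the smallest p and did not pass. Of 19 upstream kinases and factors, 10 were higher. The smallest p was for Mapk9, a kinase of the JNK family, at a log2 fold change of -0.85 on levels of 12.2 and 22.1 CPM (edgeR adjusted p = 1.00). In endothelial-like cells the median log2 fold change was -0.17 over 15 further immediate early factors, -0.14 over 28 effectors and 0.06 over 18 upstream genes, against -0.38 over the 10 genes and 0.00 over all genes.

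Heat shock genes, protein chaperones that respond to stress and handling, are given beside the 10 genes. Of 12, the number with a log2 fold change above 0 was 12 in all cells and in 5 of the 7 classes, 10 in cluster 0 and 8 in Cajal-Retzius-like cells. Among all genes tested, 5762 of 12640 in all cells and 3741 of 7718 in microglia-like cells lay above 0. The same held for 3246 of 6595 in cluster 0 and 825 of 1648 in Cajal-Retzius-like cells. In microglia-like cells the median log2 fold change was 0.71. There 12 of 12 had an unadjusted p under 0.05 in edgeR, against 4.29% of all genes, and 0 an adjusted p under 0.05. The smallest p there belonged to Cryab (log2 fold change 0.66), Hspd1 (0.75) and Hspe1 (0.74), with an edgeR adjusted p of 0.533 each. The median was 0.44 in endothelial-like cells, 0.20 in cluster 0 and 0.23 in Cajal-Retzius-like cells, where Hspa1b (250 against 263 CPM) and Dnajb1 (609 against 736) had lower means in Pb mice. Their summed level in microglia-like cells ranged from 11956 to 23895 CPM over Pb mice and from 10139 to 13433 over control mice (exact permutation p = 0.0571), and in oligodendrocyte-like cells from 13481 to 17933 and from 10642 to 12208 (p = 0.0286 in the same exact test). Pb libraries held 889 ± 309 cells against 405 ± 153 (exact permutation p = 0.0857), with a median share of mitochondrial UMIs of 3.24% ± 0.22 against 3.94% ± 0.47 (exact permutation p = 0.0571). The part of these library differences in the lower levels of Fos, Egr1 and the other genes was not tested.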

How the data were processed

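Hippocampal cells of 8 mice were measured by single-cell RNA sequencing. The authors deposited a single table of whole-number UMI counts, not normalized, and per the submitters' processing notes Cell Ranger, Seurat and mm10 were used, with versions and filters not given in the sources used here. Cell names begin with the mouse, which assigned every column (0 were left over). Cells over 20% mitochondrial UMIs (53) and Scrublet doublets (30, of them 24 from Pb mice) were removed. Scrublet called 0.628% of cells. The rest were normalized, clustered (scanpy 1.11.5, 2000 variable genes, 30 components, Leiden resolution 1.0) and named from marker lists, needing at least 3 detected markers. The naming thresholds, the within-cluster values and the alternative without shared barcodes were chosen after the data were seen.

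Raw counts were summed per mouse and class (at least 10 cells per mouse, 3 mice per group) and tested with edgeR 4.0.16 (filterByExpr, TMM, sex and exposure, quasi-likelihood test), with p-values adjusted over all genes of the class. The fit was tested on simulated data. Replicates are separate mice. Values named are the 3 genes with the smallest p in each class and Fos. From each further list they are at most the 3 with the smallest p in the class with most cells. Hspa1b and Dnajb1 in Cajal-Retzius-like cells are named outside this rule. The genes and lists were chosen with earlier results of these data known. Intervals of counting error are not given, since n is the number of mice.

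Alternatives were DESeq2 1.42.0, relative log expression factors, library totals, no low-count filter, no sex term, a replicate block, leaving out each mouse, doublets or mitochondria-rich cells kept, another clustering and another cell minimum. Promoters and builds are RefSeq's (GRCm38.p6).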

Additional observations from a re-analysis of the deposited data

Results flagged for a closer look

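Of 50 groups of 4 mice checked (the named genes and the sum of the 10 genes in each tested class), 2 had 1 mouse far from the other 3, where chance marks about 1 group in 20. Control F1 had 482 CPM of Junb in oligodendrocyte-like cells, against 707 to 729 in the other control mice. Pb M2 had 15245 CPM of the 10 genes together in pericyte-like cells, against 18635 to 19144 in the other Pb mice.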

How the results depend on the processing

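None of the 10 genes had an adjusted p under 0.05 under any alternative except without the low-count filter, which called 2 in cluster 0 (log2 fold changes of -0.49 for Fos and -0.68 for Egr1) and 1, Fosb, in the exposure by sex test in oligodendrocyte-like cells (adjusted p = 0.0183), where the same setting called 44 of 16164 genes (0.272%) against 0 of 7614 with the filter. The cause was not tested here or in the changes below. Of 1031 recomputed values, 989 were counted as unchanged. For single genes this meant the same direction and side of the threshold, and for shares of cells the same direction. For counts it meant a small change, and for medians and summed levels a move smaller than the SD over mice, whatever the sign. Medians that crossed 0 are therefore among the 989. Medians of the 10 genes stayed below 0 under all alternatives in endothelial-like, microglia-like and oligodendrocyte-like cells, cluster 0 and all cells. In astrocyte-like cells the median was 0.05 with no mitochondrial filter. Leaving out 1 mouse in turn gave 1 to 8 genes at an unadjusted p under 0.05 over all cells (2.41% to 9.6% of all genes). The count was 0 to 1 for astrocyte-like (4.45% to 6.75%), 0 to 2 for Cajal-Retzius-like (1.66% to 3.12%) and 0 to 4 for microglia-like cells (2.92% to 5.51%). It was 1 to 6 for oligodendrocyte-like (2.56% to 6.67%) and 0 to 4 for pericyte-like cells (2.65% to 4.89%). With all mice kept, the count was 1 in astrocyte-like cells without the low-count filter (3.9% of all genes) and with no mitochondrial filter (5.41%, where Fos was 0.23). In Cajal-Retzius-like cells it was 2 with relative log expression factors (2.12%), library totals (2.25%), no low-count filter (2.36%) or shared barcodes left out (2.04%). Directions also turned when a mouse was left out. Egr1 ran from -1.56 to 0.28 and Fos from -0.68 to 0.22 in Cajal-Retzius-like cells. In pericyte-like cells Fos ran from -0.40 to 0.016, Ier2 from -0.40 to 0.070 and Zfp36 from -0.47 to 0.14, the highest each time without control M1. The share of cluster 0 cells with Jund was 0.36 points higher in Pb mice when cells were not thinned.

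Same-numbered mice are linked in the labels only by sex and number, and whether they shared anything else is not known. The correlations of their deviations were -0.40 (F1), -0.15 (F2), -0.04 (M1) and -0.22 (M2), and no Pb mouse correlated best with its own number. With the replicate block 0 of the 10 genes had an adjusted p under 0.05. At an unadjusted p under 0.05 the block gave 1 gene in astrocyte-like cells (6.26% of all genes). It gave 0 in Cajal-Retzius-like cells (2.31%), where Egr1 was 0.26, Fos 0.33 and the median 0.21. With doublets kept, no class carried the name cluster 0, and the endothelial-like class held 1252 cells against 576. Its overlap with the main class (shared cells over the cells of either) was 0.423, under the 0.7 needed, so neither class could be compared. Whether it took in cells of cluster 0 was not tested. Pericyte-like cells at Leiden resolution 0.5 (overlap 0.364) could not be compared either. Depth limits the astrocyte-like and Cajal-Retzius-like classes most, with 2285 and 1648 genes tested.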

Other observations

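Small classes that entered no test also carried the genes. In 27 T or NK cell-like cells pooled over mice and thinned to 2000 UMIs, Junb was detected in 96.3% and Egr1 in 37.0%. In 44 fibroblast-like cells Fos was detected in 95.5% and Zfp36 in 36.4%. In 56 perivascular macrophage-like cells Junb was detected in 94.6%, Atf3 in 73.2% and Btg2 in 55.4%. These shares pool the cells of several mice and describe these cells only.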
